A study of Mus musculus with 28 samples.

Results

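Forced expression of Tcl1 was examined in mouse embryonic stem (ES) cells of the line ES[MC1R(20):tetTcl1(6)], in which doxycycline (Dox) in the medium keeps the transgene off and its removal turns the transgene on. All arrays whose titles carry that line name were taken, which are 4 of the 28 arrays of the series. They comprise 2 arrays of cultures with Dox at 0.2 µg/ml (transgene off) and 2 of cultures without Dox (transgene on). All 4 cultures were male ES cells of strain 126S6/SvEvTac at passage 25, grown in LIF medium on gelatin with puromycin at 1.5 µg/ml, with harvest 48 h after the last wash. Each of the 7 lines of the series carries a different transgene and was split into 6 wells, 3 with and 3 without Dox, of which 2 per condition were arrayed. The other 6 lines carry Etv5, Tbx3, Jarid2, Jmjd2c, Ctbp2 or Mettl5 in place of Tcl1 and received the same media, so they show what Dox removal did in cells with another transgene.

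Tcl1 is a small adaptor protein that binds the kinase Akt and promotes its activation. It is expressed in undifferentiated ES cells, where signalling through phosphoinositide 3-kinase and Akt supports self-renewal alongside LIF. The line is a single clone (clone 6), so its values describe that clone and not Tcl1 induction in ES cells at large, and p-values measure the spread between wells. RNA of whole cultures was measured, in which fewer cells of a type and less RNA per cell cannot be told apart.

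Each array carried the culture's RNA in Cy3 and the same reference RNA in Cy5, a pool of 11 mouse cell lines mixed with ES cell RNA. Values are log2 ratios of sample over reference from the scanner software's background-subtracted signals, and a change is the log ratio without Dox minus that with Dox. The files pair no gene name with the probes, and 0 of the 42006 probe IDs matched the gene table used here, so the probe is the unit. The Tcl1 transcript, the markers of ES cells and the gene lists drawn up for this line were therefore not analysed here, and the identity of the cultures rests on the labels. Between 25428 and 27669 probes per array were well above background in Cy3, and no probe was saturated. Replicate arrays correlated at r = 0.983 with Dox and 0.980 without Dox across the tested probes, which are not independent replicates. The 4 arrays shared 1 slide, with the cultures with Dox in the first 2 positions and those without Dox in the last 2, so culture and position on the slide cannot be told apart.

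The probes are 60 bases long and their sequences are in the files. The clearest pattern among the falls was carried by a set of 25 probes that are linked to one another by shared runs of at least 20 bases. The set came from sequence alone, one of 1254 such sets on the array, but it was singled out after its values were seen. The following members are shown because they span the set, with the 21-base run held by 16 of its members, and by no other probe of the array, in capitals.
Z00073032-1: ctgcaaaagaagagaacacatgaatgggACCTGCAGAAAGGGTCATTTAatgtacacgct
Z00073033-1: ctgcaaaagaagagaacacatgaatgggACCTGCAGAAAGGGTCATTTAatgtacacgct
Z00073039-1: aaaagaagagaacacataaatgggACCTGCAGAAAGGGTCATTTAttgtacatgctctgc
Z00077419-1: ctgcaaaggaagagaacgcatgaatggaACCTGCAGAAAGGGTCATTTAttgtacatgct
Z00031085-1: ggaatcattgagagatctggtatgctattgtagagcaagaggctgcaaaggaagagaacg
Z00072647-1: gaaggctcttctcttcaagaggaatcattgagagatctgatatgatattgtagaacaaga
Z00024383-1: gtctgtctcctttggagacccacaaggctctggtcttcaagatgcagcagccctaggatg
Z00073032-1 and Z00073033-1 have the same sequence under different IDs. Z00031085-1 joins the members with the shared run to Z00072647-1 by way of Z00072989-1, a member not shown here. Such closely related probes can bind the same RNAs, so the set is not 24 or 25 independent measurements.

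Probes outside the set whose values are described in detail are shown next, so that they can be placed on transcripts. They are a pair of large rises, Z00036262-1 and Z00059271-1, Z00026897-1, whose change was also above 0 in every other line, and 4 large falls; the polyadenylation signal AATAAA is in capitals where it occurs.
Z00036262-1: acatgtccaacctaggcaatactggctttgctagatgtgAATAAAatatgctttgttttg
Z00059271-1: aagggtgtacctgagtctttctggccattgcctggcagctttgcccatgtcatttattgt
Z00026897-1: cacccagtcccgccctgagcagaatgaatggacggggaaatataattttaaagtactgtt
Z00071195-1: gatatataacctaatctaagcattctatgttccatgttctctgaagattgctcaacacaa
Z00031338-1: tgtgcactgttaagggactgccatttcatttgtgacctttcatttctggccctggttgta
Z00076304-1: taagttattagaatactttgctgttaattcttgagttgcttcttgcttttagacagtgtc
Z00025366-1: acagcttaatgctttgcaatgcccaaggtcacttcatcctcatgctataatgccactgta

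To ask which transcripts responded to the transgene, the cultures without Dox were compared with those with Dox over 26414 probes. A probe was included where both arrays with Dox, or both without Dox, had Cy3 well above background. In limma's test with Benjamini-Hochberg adjustment, 2094 probes (7.93%) passed at an adjusted p under 0.05, of which 859 rose (3.25%) and 1235 fell (4.68%). Most changes were modest: the median absolute change of the 2094 probes was 0.36 (log2). At least 1.5-fold changes were 82 rises (0.31%) and 369 falls (1.4%), and at least 2-fold changes 13 rises and 105 falls. The arrays of the cultures did not overlap at any of the 2094 probes, which was also so at 45% of all probes tested. The calls rest on a spread estimated over all 28 arrays: with limma on the 4 arrays alone 0 probes passed, although 3581 had an unadjusted p under 0.05, against 5338 in the full fit. The count was 4693 without the Tbx3 arrays, and it was lower than 2094 when replicate 1 of either culture was left out.

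**Figure D1:**
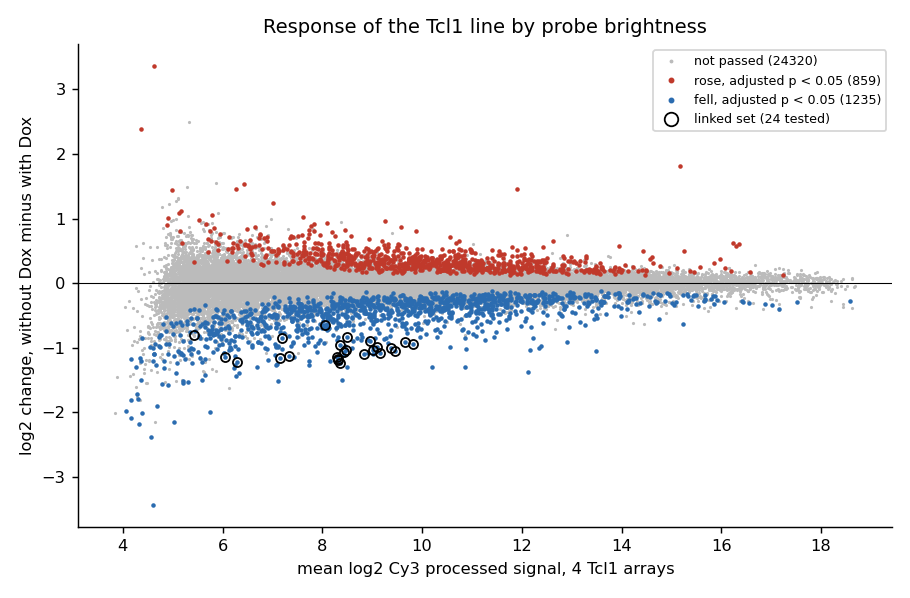
Change in the Tcl1 line (log2, without Dox minus with Dox) against the mean log2 Cy3 processed signal of each of the 26414 tested probes, with probes that passed in red (rose, 859) or blue (fell, 1235). The 24 tested probes of the sequence-linked set, circled, all lie below 0, at mean log2 signals between 5 and 10, the lower part of the range.

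Of the 25 linked probes, 24 were tested and 23 fell, against 4.68% of all probes tested; none rose. Their changes ran from -1.24 to -0.65 with a median of -1.05, a 2.07-fold fall, where the median change over all tested probes was -0.0030. With Dox the log ratios of the tested members ranged from 1.94 to 2.75 (median 2.47) on array 1 and from 2.06 to 2.85 (median 2.45) on array 2. Without Dox they ranged from 0.98 to 1.74 (median 1.43) on array 1 and from 1.07 to 1.70 (median 1.40) on array 2. The lowest array with Dox thus lay above the highest array without Dox at each of the 24 members. Over all tested probes the arrays of the cultures did not overlap, in either direction, at 45%. The median change was smaller, -0.79, with another background correction and normalization (normexp and loess), where 23 members fell too.

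The identical probes Z00073032-1 and Z00073033-1 gave nearly the same response. Z00073032-1 read 1.98 and 2.23 with Dox and 1.03 and 1.06 without Dox, a change of -1.06 ± 0.092 (SE). Z00073033-1 read 2.46 and 2.57 with Dox and 1.42 and 1.46 without Dox, a change of -1.08 ± 0.091 (SE). Their limma adjusted p-values were 1.9e-06 and 1.5e-06. Over the 16 pairs of tested probes with identical sequence on the array, the change differed by a median of 0.070 (log2) and at most 0.81 within a pair.

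Among members, Z00073039-1 fell most, with 2.75 and 2.51 with Dox, 1.31 and 1.46 without Dox, and a change of -1.24 ± 0.17 (SE; limma adjusted p = 0.00019). Z00072647-1 fell least, with 2.10 and 2.11 with Dox and 1.66 and 1.25 without Dox, a change of -0.65 ± 0.11 (SE; limma adjusted p = 0.0015). The 16 members that hold the capital run had a median change of -1.07, and the 8 tested members that lack it one of -0.93. Z00077419-1, which holds the run, had a change of -0.81 ± 0.44 (SE) and did not pass (limma adjusted p = 0.34). Its Cy3 signal was low, 68.8 and 57.6 with Dox and 38.8 and 22.4 without Dox, and it was not well above background in Cy5 on any of the 4 arrays. The untested member, Z00024383-1, was not well above background in Cy3 on any of the 4 arrays.

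The linked set was also set apart in level. With Dox, its members lay 0.73 to 1.09 (log2; median 0.87) lower in the Tcl1 line than in the mean of the other 6 lines, and 24 of 24 passed that comparison, as did 47.6% of all tested probes. Each line was hybridised on its own slide, except that the Tbx3 arrays were on 2, so line and slide cannot be told apart in a comparison of levels. The response was measured within a slide, except in the Tbx3 line, whose arrays were on 2. Its median over the 24 members in the other lines was -0.19 for Etv5, 0.26 for Tbx3, 0.052 for Jarid2, 0.36 for Jmjd2c, 0.028 for Ctbp2 and -0.065 for Mettl5. When the Tcl1 response was set against the average response of the other 6 lines, 22 of the 24 members passed, against 7.25% of all tested probes, with a median difference of -1.14. The set was chosen for its response in the Tcl1 line, so this is not independent of the choice. The same Cy5 reference moved by a median of -0.042 at these members between the cultures, and 0 of 24 passed there.

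**Figure D2:**
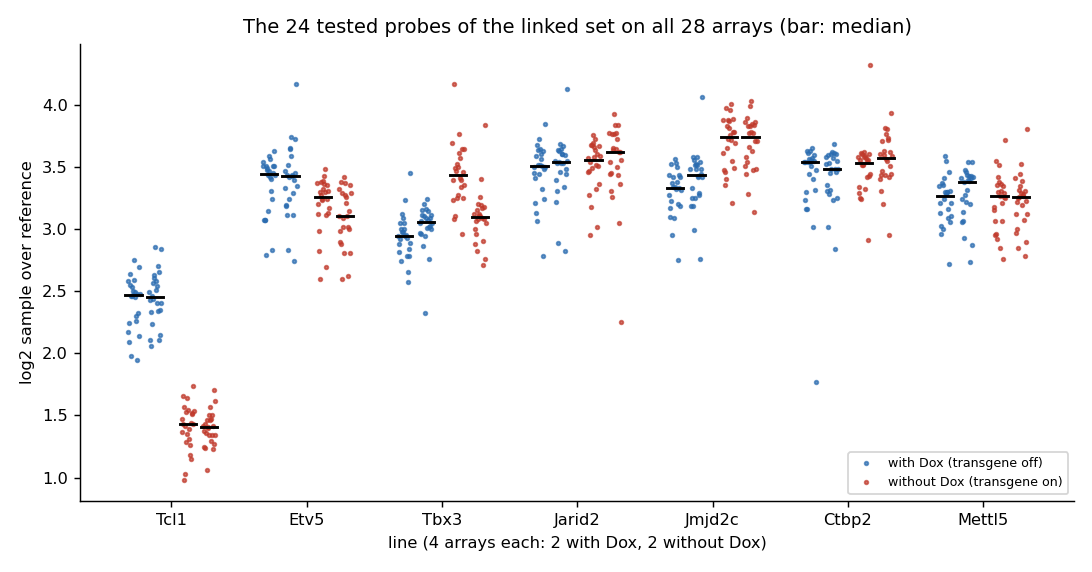
Log2 sample over reference of the 24 tested members of the linked set (points) on each of the 28 arrays, by line, with cultures with Dox in blue and without Dox in red and the median as a bar. Medians in the Tcl1 line are 2.47 and 2.45 with Dox and 1.43 and 1.40 without Dox, below those of every other line.

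A second pattern in the falls joined level and response. With Dox, 234 tested probes had a mean log ratio in the Tcl1 line over 1 (log2) below the lowest of the 12 arrays with Dox of the other lines, and at 227 of them all 4 arrays of the Tcl1 line lay below all 24 arrays of the other lines. Without Dox 108 of the 234 (46.2%) fell further, against 4.68% of all tested probes, and 13 (5.56%) rose, against 3.25%. Their median change was -0.35. Falls of at least 1.5-fold were 73 of the 234, and 61 of the 196 among them that were well above background in both channels on all 4 arrays. Over all tested probes such falls were 1.4%. None of the linked set was among the 234. The threshold was set after the values were seen, and the level and the change share the arrays with Dox. At the opposite end, 35 probes lay over 1 (log2) above the highest array with Dox of the other lines. Of these 9 fell and 1 rose, against 4.68% and 3.25% of all tested probes, so falls were more frequent at both ends.

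**Figure D3:**
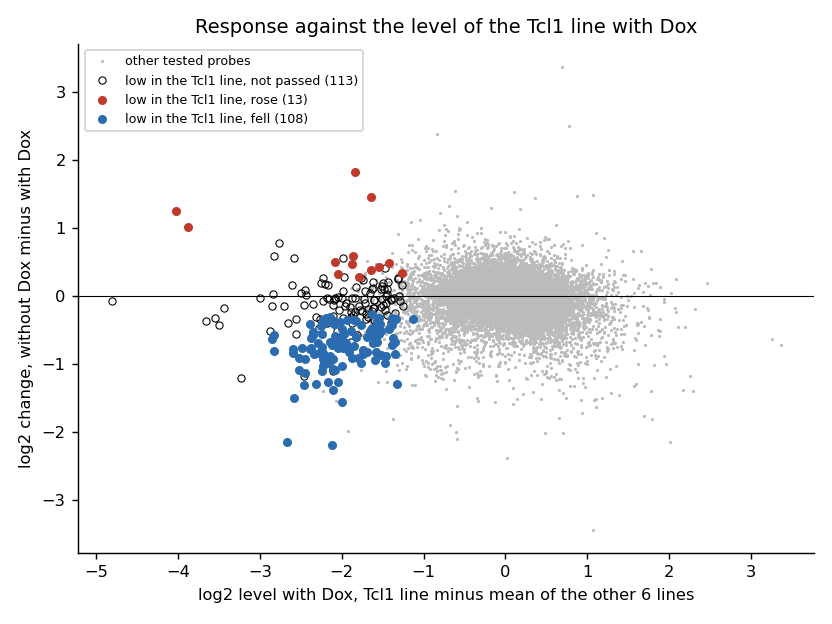
Change in the Tcl1 line (log2, without Dox minus with Dox) against its level with Dox minus the mean of the other 6 lines (log2), for the tested probes. Of the 234 probes low in the Tcl1 line, 108 fell (blue), 13 rose (red) and 113 did not pass (open circles).

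Z00071195-1 was the probe with the largest fall among those well above background in both channels on all 4 arrays. It read 1.90 and 1.83 with Dox and 0.46 and 0.28 without Dox, a 2.82-fold fall (-1.49 ± 0.095, SE; limma adjusted p = 8.2e-08). The other lines with Dox ranged from 4.14 to 5.43 (median 4.28), so both cultures of the Tcl1 line lay below them. Z00031338-1 read 1.20 and 1.23 with Dox and -0.020 and -0.31 without Dox, a 2.60-fold fall (-1.38 ± 0.070, SE; limma adjusted p = 1.6e-08). It was among the brighter probes, with Cy3 signals of 7787 and 7750 with Dox and 2936 and 2285 without Dox, and the other lines with Dox read 3.07 to 3.86. Z00076304-1 fell 2.47-fold, from 1.02 and 0.70 to -0.51 and -0.38 (limma adjusted p = 2.5e-06), below 2.87 to 3.94 in the other lines with Dox. For these 3 probes the change in any other line lay between -0.37 and 0.69, and the difference from the mean of the other lines passed at each. All probes described singly here were picked for their response in the Tcl1 line, so such a difference is not independent of the choice.

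Among the probes low in this clone that fell, Z00060294-1 was found whole, in the gene's direction, in the RefSeq start window of the gene model Gm21936, 138 to 79 bases before its annotated start, at chr12:87795362-87795421 on the plus strand of GRCm38.p6. The window, chr12:87795250-87795549 on the plus strand, is shown with the probe's bases in capitals.
Gm21936: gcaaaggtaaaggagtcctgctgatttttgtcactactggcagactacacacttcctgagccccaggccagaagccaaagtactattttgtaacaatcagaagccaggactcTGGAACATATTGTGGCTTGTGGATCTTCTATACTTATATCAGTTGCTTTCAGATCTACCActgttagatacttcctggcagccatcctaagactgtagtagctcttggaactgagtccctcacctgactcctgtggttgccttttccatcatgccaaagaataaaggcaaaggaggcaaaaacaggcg
Z00060294-1 read 0.98 and 1.13 with Dox and -0.11 and -0.39 without Dox. That is a 2.46-fold fall (-1.30 ± 0.088, SE; limma adjusted p = 1.6e-07), with both arrays without Dox below both with Dox. The other lines with Dox read 3.00 to 3.96 (median 3.25), and their changes lay between -0.27 and 0.27. The position says where the bases occur in the annotated windows, not which transcript the probe measured.

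Start windows held 267 of the probes whole, of which 171 were tested. Among these 3 rose and 7 fell, shares near or below the 3.25% and 4.68% of all tested probes, and the median change was -0.036. A probe across the start of Leng1, at chr7:3665794-3665853 in the gene's direction, rose by 0.19 (limma adjusted p = 0.046). It did not pass with normexp and loess (adjusted p = 0.088), without the filter on dim probes (0.10) or with any of the 4 arrays left out (adjusted p = 0.056 to 0.30). A probe upstream of Pdia2, a protein disulfide isomerase gene, at chr17:26199243-26199302 in the gene's direction, rose by 0.32 (limma adjusted p = 9.7e-05). A probe upstream of Fxyd5, which encodes a regulator of the sodium pump, at chr7:31042514-31042573, fell by 0.51 (limma adjusted p = 0.019), or by 0.21 with normexp and loess. The fall of this probe rested on replicate 2 without Dox, with log ratios of 0.066 and -0.0021 with Dox and -0.21 and -0.75 without Dox. Without that array the change was -0.24 (adjusted p = 0.20), and it also did not pass without either replicate with Dox (adjusted p = 0.12 and 0.058), with Cy3 alone (0.48) or in the authors' table (0.058). A probe upstream of Gm5636, a long noncoding RNA gene, at chrX:47436546-47436605 in the gene's direction, fell by 0.48 (limma adjusted p = 0.0082), but did not pass without replicate 2 with Dox (adjusted p = 0.078) or replicate 1 without Dox (adjusted p = 0.12). Z00010110-1 matched the opposite strand of 3 windows, those of Gm21083, Gm21190 and Speer4d on chromosome 5, and fell by 1.03 (limma adjusted p = 4.0e-05), or by 0.31 with normexp and loess. It was also low in this clone, with 0.22 and 0.37 with Dox against 1.71 to 2.98 in the other lines with Dox. Its sequence-linked partner fell too.

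Z00025366-1, also low in this clone but by less than the threshold of 1 (log2) below every array with Dox of the other lines, read 0.98 and 0.84 with Dox and -0.35 and -0.45 without Dox, a 2.48-fold fall (-1.31 ± 0.080, SE; limma adjusted p = 8.0e-08). The other lines with Dox read 1.64 to 2.67. Not all large falls were at probes low in this clone: Z00014991-1 fell by 1.44 (limma adjusted p = 2.9e-05), from 1.58 and 1.39 to 0.15 and -0.066, and read 0.76 to 1.92 in the other lines with Dox. At the same probe the change in the Ctbp2 line was 1.55. The fall of Z00014991-1 was 0.54 with normexp and loess.

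The rises were fewer, and the largest at well measured probes were not linked to one another by a shared run of 20 bases. Z00036262-1, a very bright probe, read -1.72 and -1.58 with Dox and 0.20 and 0.14 without Dox. That is a 3.53-fold rise (1.82 ± 0.10, SE; limma adjusted p = 4.5e-08), and its Cy3 signal went from 20030 and 20810 to 71710 and 61610. In the other lines with Dox it read -0.22 to 0.82 (median 0.12), so the cultures of the Tcl1 line without Dox lay inside that range and those with Dox below it. Z00059271-1 had the same form, with -1.82 and -1.74 with Dox and -0.30 and -0.34 without Dox, a 2.75-fold rise (1.46 ± 0.10, SE; limma adjusted p = 2.5e-07). The other lines with Dox read -0.55 to 0.23 there. Both differed from the mean response of the other lines, by 1.91 (adjusted p = 5.7e-08) and 1.39 (adjusted p = 1.0e-06). Their largest opposite values were in the Tbx3 line, with changes of -0.72 and -0.43.

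Z00075595-1 and Z00025587-1 also rose, from levels far below the other lines. Z00075595-1 read -4.15 and -4.04 with Dox and -2.68 and -3.01 without Dox, against -0.83 to 0.32 in the other lines with Dox, and rose 2.38-fold (limma adjusted p = 4.5e-06). Z00025587-1 read -4.06 and -4.32 with Dox and -2.95 and -3.38 without Dox, against -1.13 to 0.051 in the other lines with Dox, and rose 2.02-fold (limma adjusted p = 0.00023). Both were dimmer than the preceding pair, and with normexp and loess each rose by 0.57.

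Z00026897-1 rose in the Tcl1 line, and its change was above 0 in every line. It read 0.12 and 0.23 with Dox and 1.71 and 1.71 without Dox, a change of 1.53 ± 0.16 (SE; limma adjusted p = 1.1e-05), or of 0.61 with normexp and loess. In the other 6 lines the change lay between 0.42 and 1.80, and the difference between the Tcl1 line and their mean, 0.41, did not pass (adjusted p = 0.18).

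**Figure D4:**
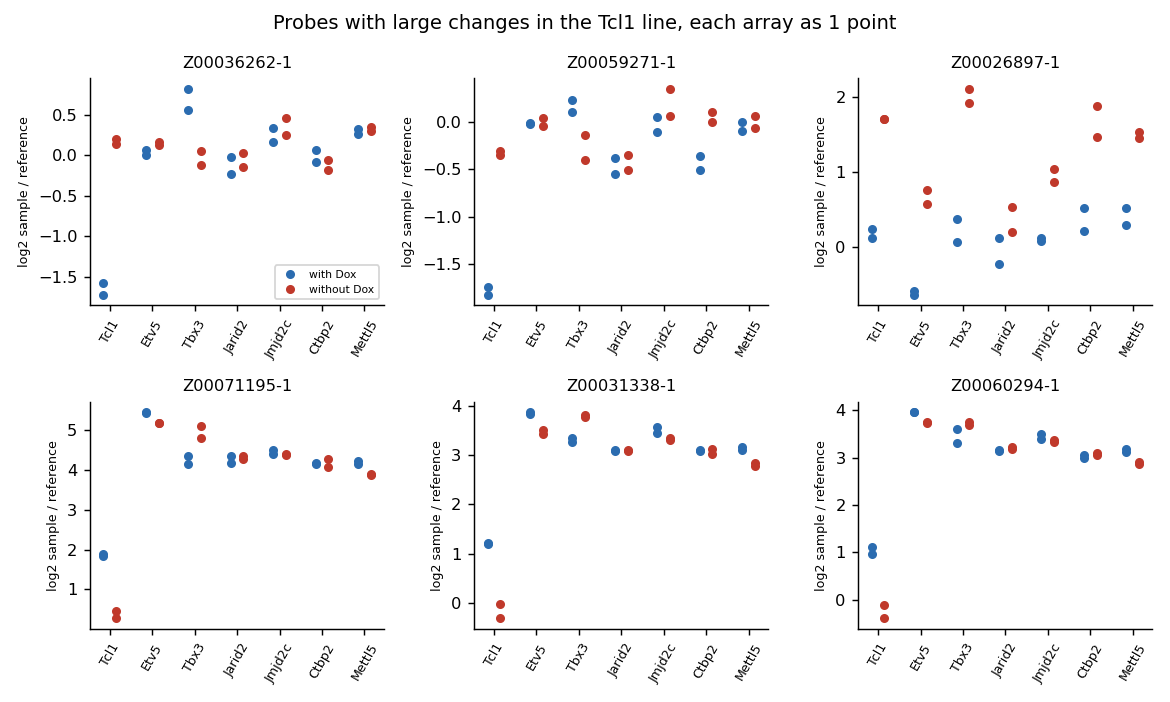
Log2 sample over reference on each array (points) of 3 probes with a rise (top) and 3 with a fall (bottom) in the Tcl1 line, by line, with Dox in blue and without Dox in red. In the Tcl1 line Z00036262-1 goes from -1.72 and -1.58 to 0.20 and 0.14, Z00026897-1 has differences of 0.42 to 1.80 in the other lines, and the 3 probes with a fall lie below every other line in both cultures.

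The naming rule picked the 2 largest rises and the 2 largest falls, all at probes not well above background in 1 of the cultures, where the size is only a bound. The bound sets the brighter culture against the dimmest detected signal, on Cy3 scaled to each array's 75th percentile. Z00072898-1 had Cy3 signals of 10.7 and 5.51 with Dox, not well above background, and 96.7 and 65.8 without Dox, at least 3.26-fold higher (limma adjusted p = 2.6e-07). In the other lines the difference in its log ratio ranged from 0.93 to 3.31. Z00031758-1 had 5.05 and 5.41 with Dox and 145 and 44.3 without Dox, at least 3.28-fold higher (limma adjusted p = 0.015). Its Cy5 signal was well above background on only 2 of the Tcl1 arrays. That signal moved by 1.655 (log2) the same way, which did not pass (limma adjusted p = 0.78). The difference from the mean response of the other lines did not pass either (limma adjusted p = 0.062). Z00031758-1 had log ratios of 0.46 and 0.61 without Dox, against -2.48 to 0.46 in the other lines with Dox. It passed no longer without replicate 1 with Dox (adjusted p = 0.13) or without either replicate without Dox (adjusted p = 0.071 for each).

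Z00007320-1 had Cy3 signals of 61.1 and 124 with Dox and 6.37 and 7.19 without Dox, where it was not well above background, and was at least 2.53-fold lower (limma adjusted p = 0.0076). It passed no longer without replicate 2 with Dox (adjusted p = 0.074) or without replicate 1 without Dox (adjusted p = 0.061). Z00071857-1 had 41.9 and 35.1 with Dox and 11.0 and 19.03 without Dox, at least 1.12-fold lower (limma adjusted p = 0.0028). Its Cy5 signal was not well above background on any of the 4 arrays and moved by 1.07 (log2) the other way, so its log ratio rests on a reference that was not measured there.

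Loss of detection was more common than gain. Of the tested probes 498 were detected (well above background in Cy3) with Dox on both arrays and on neither without Dox, and 28 the other way round. Array signal moved with this: the median Cy3 signal was 114 and 109 with Dox and 107 and 96.9 without Dox. The median signal of the Cy5 reference moved the same way, with 121 and 116 with Dox and 114 and 107 without Dox. The part of array signal in the result was not tested. Among probes that passed, 59 falls, of those 498, were undetected on both arrays without Dox, and 4 rises, of those 28, on both with Dox. Each entered the test only through the culture in which it was detected, so its direction was largely set by the filter. These counts therefore do not compare falls with rises. For those 59 falls the bound had a median of 1.23-fold and a maximum of 2.75-fold, was at least 1.5-fold for 15, and was under 1-fold for 7, for which it sets no size.

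The split between rises and falls changed with brightness. Of the 507 probes with a mean log2 Cy3 signal up to 5, 5 rose and 39 fell, with a median change of -0.33, or of -0.053 with normexp and loess. A probe could enter the test through 1 culture alone. Detected on both arrays with Dox and on 0 or 1 without were 498 and 945 tested probes, against 28 and 59 the other way round. The filter therefore favoured falls among dim probes, and their split is not independent of it. At signals from 9 to 10, 154 rose and 169 fell of 2654, and above 12, 167 rose and 209 fell of 6590, with a median change of 0.0043. Falls of at least 1.5-fold stayed more frequent than such rises among bright probes, with 31 against 4 at signals from 10 to 12 and 13 against 4 above 12. With normexp and loess, 13 rises and 100 falls of at least 1.5-fold passed in all, against 82 and 369 on the processed signals.

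**Figure D5:**
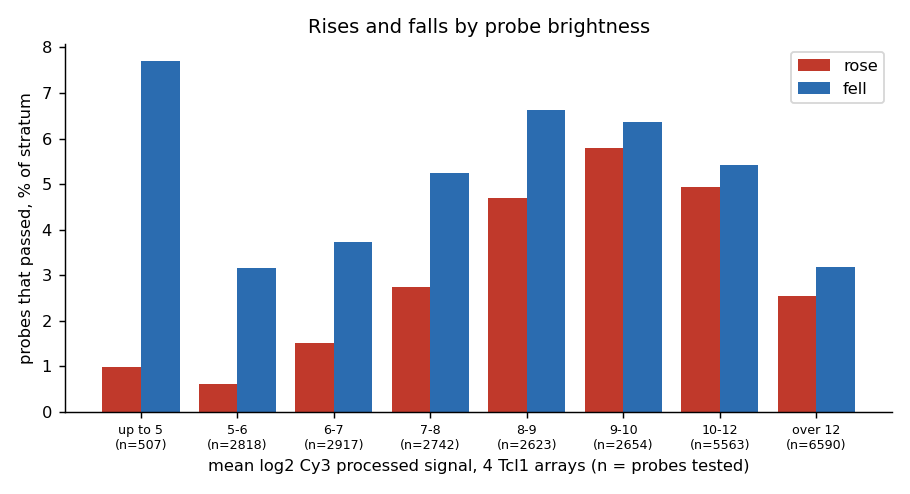
Share of tested probes that rose (red) or fell (blue) at an adjusted p under 0.05, in percent, in 8 strata of mean log2 Cy3 signal on the 4 Tcl1 arrays. In the dimmest stratum 39 of 507 probes fell and 5 rose, while at signals from 9 to 10 the numbers were 169 and 154 of 2654. More probes entered the test only through the cultures with Dox than only through those without, which favours falls among dim probes.

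Probes that share sequence moved alike across the array. Of the 769 linked sets with 2 or more tested probes, 55 had at least 2 that passed; in 32 all of these fell, in 23 all rose, and in 0 they were mixed. Over the 700 sets with exactly 2 tested probes, the changes of the partners correlated at r = 0.692, as a description over partners that share sequence and arrays. After the set of 25, the one with most calls had 5 members, of which 4 fell and the other had a change of 0.069.

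In base composition the falls resembled all tested probes, while the rises were somewhat richer in A and T. The median GC content was 45.0% of all tested probes, 45.0% of those that fell and 43.3% of those that rose. AATAAA, searched in the probe's own direction only, was in 7.62% of tested probes, 9.23% of those that fell and 14.4% of those that rose. These are descriptions of the probes and say nothing about the transcripts beyond those bases.

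Against the mean response of the other 6 lines, 1915 of 26414 probes (7.25%) differed in the Tcl1 line. Of the 2094 called probes, 1608 also passed this test, 665 that rose and 943 that fell. Both tests hold the same difference within the Tcl1 line, so this overlap is not independent of the first call. In the Cy5 reference, the same RNA on every array, 20 probes (0.0757%) passed between the cultures, with 1279 at an unadjusted limma p under 0.05. This channel cannot show technical differences in the cultures' own RNA or in Cy3. Of the 20 probes that passed in the reference, 5 also passed in the response, where 7.93% of all tested probes passed. Without replicate 2 of the cultures with Dox, 759 reference probes passed, and without any other array 50 to 93.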

How the data were processed

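RNA of 2 cultures with and 2 without Dox of the Tcl1 line was compared on 2-colour Agilent arrays, with 24 arrays of 6 other lines in the same model. The deposited processed signals are intensity values, background-subtracted and dye-normalized within the array by Agilent Feature Extraction 9.5.1.1 per the file headers, which also replaces low values. The deposited mean and background signals are intensity values before normalization. The deposited detection, saturation and quality columns are other values, flags of 0 or 1 per the file headers. The values deposited by the authors in a separate table are log10 signals; against the scanner files they are Cy3 corrected for the deviation of Cy5, within 0.01 at 98.2% to 100% of bright spots on the Tcl1 arrays. Their column medians were 2.26, 2.27, 2.26 and 2.25, and how low values were bounded stays unknown.

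Log2 of Cy3 over Cy5 was averaged over spots of a probe, without control spots and without 102 spots flagged as outliers. A model with 14 group means was fitted with limma 3.58.1 (R 4.3.3, with the package data.table in version 1.17.8; 14 residual and 2.00 prior degrees of freedom), and Benjamini-Hochberg adjustment ran over all 26414 tested probes. On simulated data the fit recovered 61% of 100 changes of 0.5 (log2) and 85% of 100 changes of 1, with 4 false calls. Smaller changes were not simulated. Precision is limited by having 2 arrays in each group. Probes were linked by shared runs of 20 bases, and placed by exact match of all 60 bases to RefSeq start windows (250 bases before to 50 after the start, GRCm38.p6). Probes were named by the rule of the 2 largest rises and falls that passed without overlap, detected on both arrays of the higher culture. Other probes shown were chosen by size among probes detected in both channels on all 4 arrays, or for their sequence. The members, lists and probes were chosen with earlier results of these data known. Gene lists and cell type markers need gene names and were not run. Alternatives were another background correction and normalization, Cy3 alone, the authors' table, median centring, other filters, fewer arrays, and a replicate block.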

Additional observations from a re-analysis of the deposited data

Results flagged for a closer look

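The response in the Tcl1 line was set against the mean response of the other 6 lines. At the 3 probes named by rule that passed this comparison, the difference was 0.965 (log2) for Z00072898-1, -1.95 for Z00071857-1 and -3.50 for Z00007320-1. At the other probe named by rule, Z00031758-1, it was 2.00 and did not pass (limma adjusted p = 0.062). These values are descriptions only, since the probes were picked as extremes of the Tcl1 response and were undetected in 1 of its cultures. Z00072898-1 had a change of 3.36 in the Tcl1 line, and of 3.31, 3.29 and 3.04 in the Tbx3, Ctbp2 and Mettl5 lines. Its changes in the Etv5, Jarid2 and Jmjd2c lines were 2.31, 1.51 and 0.93. Z00071857-1 was not well above background in Cy5 on any Tcl1 array, so its log ratio has no measured reference there. Of the 24 tested members of the linked set, also chosen for its response in the Tcl1 line, 22 differed from that mean, each with a lower response in the Tcl1 line.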

How the results depend on the processing

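The count of 2094 stayed within 1.5 times under normexp and loess, Cy3 alone, the authors' table, median centring, the other filters and the replicate block. The numbers tested differed, with 2667 of 16446 passing in the authors' table and 1539 of 42006 without a filter. Of the 2094 probes themselves, 1446 (no filter) to 1992 (Cy3 well above background on all 4 arrays) passed again under these settings. With limma on the 4 arrays alone 0 probes passed (3581 at an unadjusted p under 0.05), and without the Tbx3 arrays 4693. Leaving out an array gave 1147 to 1715. Against the other lines the count of 1915 became 4231 without the Tbx3 arrays and 1090 to 1618 with an array left out. The reference channel gave 0 probes on the 4 arrays alone (982 at an unadjusted p under 0.05), 7 among probes detected in both channels on all 4 arrays, and 50 to 759 with an array left out. In the linked set 23 members fell, and 21 to 23 with an array left out; 0 passed on the 4 arrays alone, where 24 had an unadjusted p under 0.05, and the authors' table holds only 5 members, of which 5 fell. These settings were applied to the set after seeing the data. With the replicate number as a block, 2081 probes passed in the response, 2051 against the other lines and 22 members fell; same-numbered arrays deviated together at r = 0.219, but 2 pairs do not show that the numbers pair the samples. No change of a probe followed individually turned its sign under any of these settings, and on the 4 arrays alone none of the 31 passed. The cause of these shifts was not tested, apart from the fewer arrays and probes that a setting itself brings. Dim probes limit the sizes: normexp and loess moved the 4 probes named by rule from 3.36, 2.38, -2.38 and -3.43 to 0.67, 0.36, -0.31 and -0.46.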
